A study of Mus musculus with 2 samples.

Results

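*Wdfy1* was 1 of 31053 genes counted in single cells of the mouse eye cup at e13.5, and it is described here because its counts differed between the 2 libraries of the study in nearly every cell class. The gene was found by its symbol and its identifier, ENSMUSG00000073643, and its unique molecular identifiers (UMIs, each a tag for 1 captured RNA molecule) were summed by cell class and library. *Wdfy1* was chosen by these same UMI counts, so its levels and ratios are a description and no test was made. The control library came from 3 pooled *Myrf fl/fl* samples, in which both copies of *Myrf* carry loxP sites but no Cre is present. The mutant library came from 3 pooled *Rx > cre Myrf fl/fl* samples, in which Cre driven by the *Rx* promoter deletes *Myrf* in the early eye field. Floxed *Myrf* was thus common to both groups, and genotype, pool and library cannot be told apart. The strain background of the pools and of the *Rx > cre* line is not given in the sources used here, so a difference in background between the libraries cannot be told apart from genotype either. Cornea, lens and optic nerve were removed before the cells were dissociated.

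WDFY1 is a cytoplasmic protein with WD40 repeats, which fold into a propeller that holds other proteins, and a FYVE zinc finger, which binds phosphatidylinositol 3-phosphate (PI3P), the lipid that marks early endosomes. It is known as an adaptor that brings the signalling protein TRIF (*Ticam1*) to the Toll-like receptors TLR3 and TLR4, upstream of interferon and NF-kappaB. *Wdfy2*, its closest relative, shares this layout, while *Wdfy3* and *Wdfy4* are much larger proteins with a BEACH domain.

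*Wdfy1* lies on the minus strand of chromosome 1 at chr1:79702262-79776143 in mm10 (GRCm38). The GENCODE annotation gives it 14 transcripts, of which 9 are protein coding and 4 end at the 3′ end of the gene. Of these, *Wdfy1-204* has 4551 bases and 1230 coding bases in 12 coding exons, and its last exon holds 3309 bases. Coding exons 4, 5 and 6 exist as a pair of copies within the gene, 7442 bases apart on the chromosome, and transcripts differ in which copy they use. They are printed because a read from them has more than 1 place in the genome, and no base is in capitals because 0 bases differed between the copies. Coding exon 12, the coding exon nearest to the 3′ end that the libraries capture, is printed beside them and was the same stretch of the chromosome in both transcripts compared, *Wdfy1-204* and *Wdfy1-205*. How reads from the copied exons were placed was not tested. The sequences are from GENCODE transcripts and run 5′ to 3′ along the gene.
Coding exon 4, chr1:79729656-79729710, with its copy at chr1:79722214-79722268: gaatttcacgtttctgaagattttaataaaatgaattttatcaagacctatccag
Coding exon 5, chr1:79726566-79726716, with its copy at chr1:79719124-79719274: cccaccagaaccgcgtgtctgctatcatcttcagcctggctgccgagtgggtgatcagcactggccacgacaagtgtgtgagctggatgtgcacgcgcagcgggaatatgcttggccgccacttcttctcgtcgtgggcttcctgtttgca
Coding exon 6, chr1:79724645-79724757, with its copy at chr1:79717203-79717315: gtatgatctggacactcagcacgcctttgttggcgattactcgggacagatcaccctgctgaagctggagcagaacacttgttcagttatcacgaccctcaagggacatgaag
Coding exon 12, chr1:79705514-79705570: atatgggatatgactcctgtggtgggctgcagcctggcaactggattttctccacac
Beyond the gene itself, no transcript of another gene matched *Wdfy1-204* over at least 90 bases at 97% identity or more. Below that limit, transcripts of 2036 other genes matched in part. The longest of these matches lay between bases 2646 and 2834, in the last exon, at up to 91.6% identity. The coding sequence of *Wdfy1* was 63.3% identical to that of *Wdfy2*, and the longest run of bases they shared was 20. *Mrpl44*, on the opposite strand, overlaps the 5′ end of *Wdfy1* by 126 bases.

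Once doublets and barcodes below 200 genes or above 15% mitochondrial UMIs had been removed, 5468 control and 6300 mutant cells remained, with 61538465 and 73281142 UMIs. *Myrf*, the deleted gene, counted 155 UMIs in RPE-like cells of the control and 30 in those of the mutant, or 74.2 and 20.1 per 1000000 UMIs of the class (CPM), a log2 ratio of -1.85 (95% interval -2.50 to -1.31). RPE is the retinal pigment epithelium. Cells were clustered and 14 classes were named from marker genes, while 24.4% of control and 20.4% of mutant cells stayed in unnamed clusters. Haemoglobin genes held 5.99% of control and 11.6% of mutant UMIs. Both libraries held 67 kept cells whose barcode occurred in each, and without them the *Wdfy1* log2 ratio over all kept cells was unchanged at 2.67. The median log2 ratio over 13560 genes with at least 100 UMIs was -0.13, and ratios over all kept cells are to be read against it. Within classes, over genes with at least 20 UMIs, the median was 0.40 in red blood cell-like cells. In the other classes it ranged from -0.07 in Schwann or neural crest-like to -0.02 in retinal progenitor-like cells.

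Over all kept cells, *Wdfy1* had 384 UMIs in the control library and 2920 in that of the mutant. Its level was 6.24 CPM in the control (exact 95% Poisson interval 5.63 to 6.90) and 39.8 CPM in the mutant (38.4 to 41.3). The log2 ratio of mutant to control was 2.67, with an exact interval of 2.52 to 2.83, which is 6.37-fold with 1 UMI added to each sum. These intervals cover counting error only, since there was 1 library per genotype, and the spread between embryos is unknown. The same direction appeared in cells that were set aside. In marked doublets *Wdfy1* stood at 5.92 CPM in the control and 34.6 CPM in the mutant. In barcodes over the mitochondrial limit it stood at 7.89 CPM and 32.5 CPM, and in unnamed clusters at 7.85 CPM and 41.8 CPM. *Wdfy1* was therefore higher in the mutant library whichever of these groups of barcodes was counted.

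*Wdfy1* was higher in the mutant library in all 14 named classes, and the log2 ratio ranged from 0.82 to 3.28 with a median of 2.45. The interval of the ratio lay above 0 in 13 classes, with muscle-like cells as the exception. The Poisson intervals of the CPM values did not overlap in 10 of the 14 classes. RPE-like cells, in which *Myrf* is expressed, had 13 *Wdfy1* UMIs in 254 control cells and 96 in 151 mutant cells. Their level was 6.22 CPM (3.31 to 10.6) in the control and 64.3 CPM (52.1 to 78.5) in the mutant, for a log2 ratio of 3.28 (2.53 to 4.33).

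Among the neural retina classes, retinal progenitor-like cells, the dividing cells that give rise to the retina, had 104 and 978 *Wdfy1* UMIs. They stood at 5.81 CPM in the control and 56.4 CPM in the mutant, for a log2 ratio of 3.27 (2.98 to 3.58). Neurogenic precursor-like cells, which are leaving the cell cycle, had 25 and 222 UMIs, at a log2 ratio of 2.86 (2.31 to 3.57). Retinal ganglion cell-like cells, the first neurons of the retina to form, had 22 and 161 UMIs, at a log2 ratio of 2.53 (1.94 to 3.30). The classes of amacrine or horizontal-like and photoreceptor precursor-like cells were small. The first had 3 and 39 UMIs, which gave a log2 ratio of 2.91 (1.63 to 5.63), and the other had 1 and 10 UMIs, which gave a log2 ratio of 2.51 (0.56 to 8.81). The direction was the same in these small classes, but the intervals spanned most of the range seen in the larger ones.

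The classes that do not descend from the eye field also had more *Wdfy1* in the mutant library. Periocular mesenchyme-like cells, the connective tissue around the eye, had 101 and 780 UMIs, at 5.57 and 34.2 CPM, for a log2 ratio of 2.61 (2.32 to 2.93). Endothelial-like cells had 21 and 108 UMIs, which gave a log2 ratio of 2.31 (1.68 to 3.11). Macrophage-like cells had 12 and 67 UMIs, which gave a log2 ratio of 2.40 (1.59 to 3.51). In none of these 3 classes did the CPM intervals of the libraries overlap. Melanocyte-like cells had 15 and 56 UMIs, at a log2 ratio of 2.21 (1.44 to 3.21). Schwann or neural crest-like cells had 14 and 92 UMIs, at a log2 ratio of 1.73 (0.99 to 2.74). Surface ectoderm-like cells had 2 and 12 UMIs, at a log2 ratio of 2.23 (0.53 to 5.90). Muscle-like cells had 2 and 5 UMIs, at a log2 ratio of 0.82 (-1.47 to 4.53), so no direction can be read there. Red blood cell-like cells had 4 and 28 UMIs, at 0.947 and 2.73 CPM, for a log2 ratio of 1.26 (0.01 to 3.50). In red blood cell-like cells the median gene also had a log2 ratio of 0.40, and 12.7% of genes were at least 2-fold higher in the mutant, so *Wdfy1* was 1 among many such genes there.

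**Figure D1:**
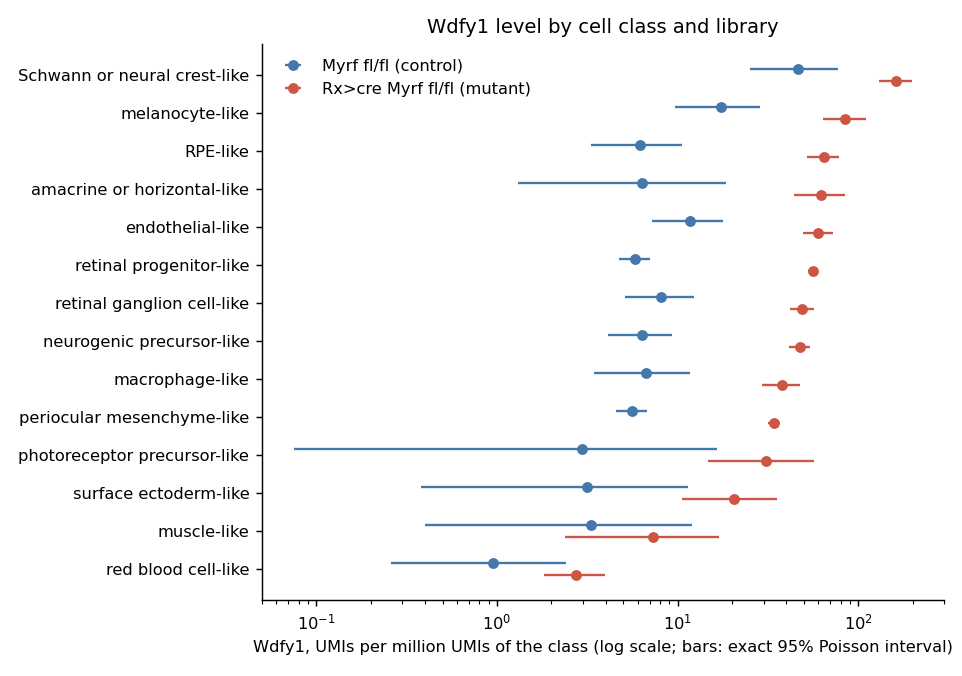
Wdfy1 level in each of 14 cell classes, in UMIs per 1000000 UMIs of the class on a log scale, for the control library (blue) and the mutant library (red), with classes ordered by the mutant level and bars giving exact 95% Poisson intervals. The mutant point lies to the right of the control point in every class, and the bars overlap in photoreceptor precursor-like, surface ectoderm-like, muscle-like and red blood cell-like cells.

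The order of the classes by *Wdfy1* level was alike at its ends in both libraries. Schwann or neural crest-like cells were highest, at 46.3 CPM (25.3 to 77.6) in the control and 163 CPM (131 to 199) in the mutant. Melanocyte-like cells followed, at 17.4 CPM (9.72 to 28.6) and 84.5 CPM (63.8 to 110). Red blood cell-like cells were lowest in each. Both of the leading classes descend from the neural crest. In the mutant, the interval of Schwann or neural crest-like cells did not overlap that of melanocyte-like cells, while every other pair of neighbours in that order overlapped. In the control, all neighbouring classes had overlapping intervals, so the order between them cannot be read beyond counting error. RPE-like cells stood at place 8 in the control and at place 3 in the mutant. The Schwann or neural crest-like cells numbered 22 in the control and 38 in the mutant, and in the mutant they also had more UMIs of the retinal and neuronal genes *Atoh7*, *Six3*, *Stmn2* and *Tubb3*, each with a ratio above that of *Wdfy1*. The part of that admixture in the *Wdfy1* level of this class was not tested.

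To ask whether a few cells held the counts, *Wdfy1* UMIs were counted per cell. In the control, the 384 UMIs lay in 347 of 5468 cells, and the highest cell had 4. In the mutant, the 2920 UMIs lay in 1996 of 6300 cells, 1361 cells had 1 UMI each, and the highest cell, which was endothelial-like, had 7 and held 0.240% of all *Wdfy1* UMIs. The counts were thus spread over many cells. The share of cells with a *Wdfy1* UMI was 6.35% in the control (Clopper-Pearson 95% interval 5.71 to 7.02) and 31.7% in the mutant (30.5 to 32.8). If all cells of a library had the same *Wdfy1* rate per UMI, 6.64% and 33.6% would be computed from their depths, so the mutant share lay below that of a single rate, which was outside its interval. The gap was widest in mutant cells above 20000 UMIs, with 44.4% observed (41.2 to 47.6) and 54.2% computed. Within retinal progenitor-like cells 48.2% of mutant cells had a *Wdfy1* UMI (45.4 to 50.9), against 48.6% computed from a single rate for that class. In red blood cell-like cells, which make little RNA other than that of haemoglobin and serve as a measure of free RNA, the share was 1.92% in the control and 5.12% in the mutant, although their median depth of 22476.5 and 22723.5 UMIs was above the 11332 and 11154 of all kept cells. RPE-like cells, at median depths of 3956 and 4260 UMIs, had shares of 5.12% (2.75 to 8.59) and 39.1% (31.2 to 47.3).

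Because a share of cells with a UMI moves with depth, each cell was thinned to 3000 UMIs, and 1325 control and 1303 mutant cells that were shallower were left out. The share with a *Wdfy1* UMI was then 2.05% in the control and 11.9% in the mutant. In RPE-like cells it was 1.52% of 132 control cells and 18.8% of 80 mutant cells, against 1.12% and 0.726% in red blood cell-like cells. At this depth the control share of RPE-like cells rested on 2 UMIs, and its interval of 0.184 to 5.37% included the red blood cell-like share, so it was not read as above background. Without thinning, the CPM intervals of these classes in the control, 3.31 to 10.6 and 0.258 to 2.42, did not overlap. Their share intervals without thinning, 2.75 to 8.59% and 0.526 to 4.85%, did overlap. Both CPM and thinning count the haemoglobin UMIs of red blood cell-like cells, which lowers the *Wdfy1* value of that class as a measure of free RNA. The thinned mutant share of RPE-like cells, with an interval of 10.9 to 29.0%, lay above that of red blood cell-like cells. Without thinning the mutant intervals, 31.2 to 47.3% and 3.34 to 7.47%, were apart too.

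The ratio was then compared between classes with and without an origin in the eye field, where *Rx > cre* acts. Summed over the 6 eye field classes, *Wdfy1* had 168 UMIs in 2219 control cells and 1506 in 2371 mutant cells, for a log2 ratio of 3.14 (2.92 to 3.39). Summed over the 8 other classes, it had 171 UMIs in 1913 control cells and 1148 in 2645 mutant cells, for a log2 ratio of 2.27 (2.05 to 2.52). The control levels of the summed groups were 6.12 and 6.03 CPM and the mutant levels 54.3 and 29.3 CPM. The difference between the ratios was 0.86 on the log2 scale (0.54 to 1.19), and 0.66 (0.33 to 0.99) without red blood cell-like cells. The median gene had a log2 ratio of -0.02 in the eye field classes and -0.21 in the others, and these differences are not scaled by it. Retinal progenitor-like cells held 978 of the 1506 mutant UMIs. Retinal ganglion cell-like (2.53) and photoreceptor precursor-like cells (2.51) lay below periocular mesenchyme-like cells (2.61), and the remaining eye field classes above. The order of the summed groups turned in cells of at most 2000 UMIs. There the log2 ratio was 0.99 (-0.19 to 2.49) in eye field classes and 1.56 (-0.17 to 5.24) in the others, with overlapping intervals. RPE-like cells against all other kept cells differed by 0.62 (-0.21 to 1.46) and against retinal progenitor-like cells by 0.01 (-0.86 to 0.88), and both intervals included 0. Against single classes, the interval of the difference lay above 0 for 3 of 13. They were Schwann or neural crest-like at 1.55 (0.40 to 2.69), red blood cell-like at 2.02 (0.37 to 3.67) and muscle-like cells at 2.46 (0.15 to 4.77). The intervals of differences are normal approximations, and the exact ratio intervals of all 3 classes overlapped that of RPE-like cells. The muscle-like value rested on 2 and 5 UMIs in that class and is not read. Of the RPE-like cells, those with a *Myrf* UMI had 9 and 31 *Wdfy1* UMIs, which gave a log2 ratio of 3.10 (2.11 to 4.47). Those without had 4 and 65, a log2 ratio of 3.39 (2.27 to 5.61). The split also followed depth, with median depths of 15181 and 18276 UMIs in cells with a *Myrf* UMI and 1290 and 2269.5 in cells without. A cell without a *Myrf* UMI is thus not known to lack *Myrf*.

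The 30 clusters behind the classes were also taken singly, and 23 of them had at least 20 *Wdfy1* UMIs. *Wdfy1* was higher in the mutant in all 23, at least 2-fold in 22, and the interval lay above 0 in 21. The lowest log2 ratio, 0.90 (-0.14 to 2.07), was in an unnamed cluster led by *Gm26870* and *Lars2*, with 13 and 20 UMIs. The highest, 4.89 (3.70 to 7.59), was in a retinal progenitor-like cluster led by *Hmmr*, a spindle gene, and *Aldh1a3*, with 3 and 99 UMIs. Its interval lay above that of the largest retinal progenitor-like cluster, at 2.95 (2.58 to 3.39). It was picked as the highest of 23, however, so this gap is a description. Its control count of 3 UMIs was at the floor, and its median depth was 4833.5 UMIs, against 14349 in the largest progenitor cluster. The mutant levels of these 2 progenitor clusters were 51.7 and 57.3 CPM, and their control levels were 1.32 and 7.28 CPM.

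*Wdfy1* was next compared within ranges of depth, of mitochondrial share and of sex, each of which could differ between pools. Female cells, with *Xist* UMIs and none of 4 Y-linked genes, numbered 1964 in the control and 1559 in the mutant, and male cells, the converse, 1138 and 1764. Each library therefore held embryos of both sexes. The *Wdfy1* log2 ratio was 2.67 (2.45 to 2.91) in female and 2.58 (2.32 to 2.87) in male cells, with mutant levels of 43.2 and 42.1 CPM. In cells with 2000 to 5000 UMIs the log2 ratio was 3.21, with 5000 to 10000 it was 3.22, with 10000 to 20000 it was 2.76 and above 20000 it was 2.44. In cells under 2000 UMIs it was 1.31 (0.62 to 2.11), and its interval did not overlap that of the next range (2.36 to 4.52). The control level in those shallow cells was 20.3 CPM on 23 UMIs, against 3.80 to 6.66 CPM in the deeper ranges. By mitochondrial share, the log2 ratio was 2.30 under 2%, 2.73 from 2 to 5%, 3.07 from 5 to 10% and 1.08 (-0.05 to 2.49) from 10 to 15%, where the control had 9 UMIs.

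**Figure D2:**
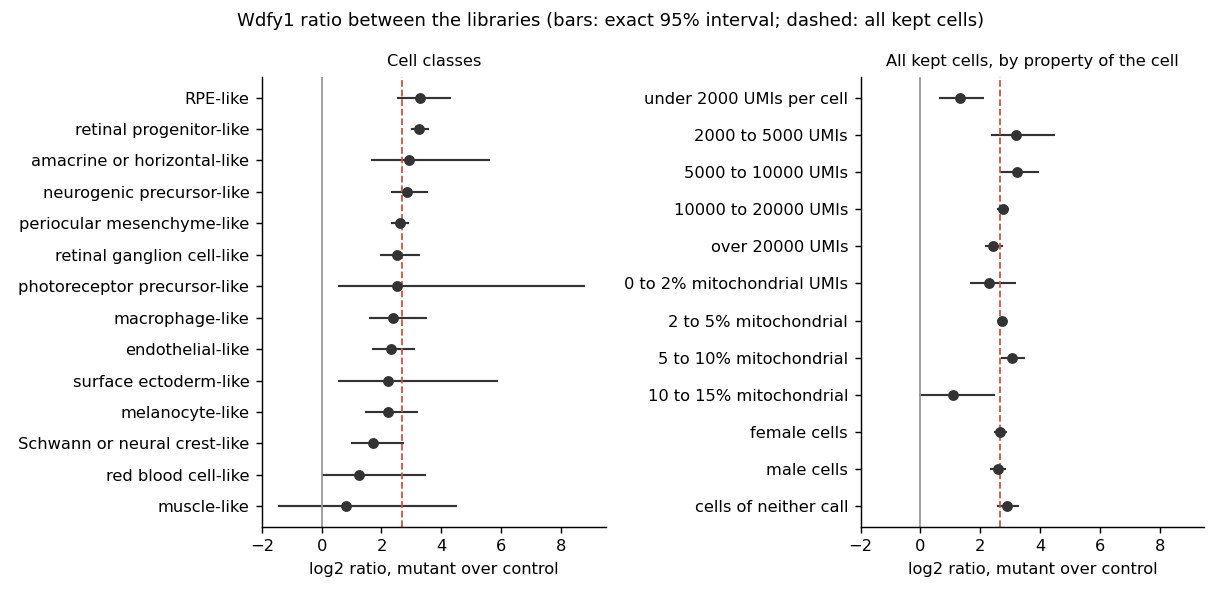
Log2 ratio of Wdfy1 CPM, mutant over control, in each cell class (left) and in all kept cells by UMIs per cell, mitochondrial share and sex (right), with exact 95% intervals as bars and a dashed line at 2.67 for all kept cells. Every point lies above 0, and the intervals of muscle-like cells and of cells with 10 to 15% mitochondrial UMIs cross it.

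Among all genes, 0.295% of the 13560 with at least 100 UMIs were at least 2-fold higher in the mutant library and 0.693% at least 2-fold lower. The same counts chose *Wdfy1*, so its place among them is a description. It stood at place 15 from the top. The 14 genes above it included *Lcn2*, *Ngp*, *Camp*, *Ltf*, *S100a8* and *S100a9*, which neutrophils store in granules or cytosol, and stefin genes such as *Stfa2* and *Stfa2l1*. The largest, *Gm5483*, had 0 control and 656 mutant UMIs, of which 653 were in macrophage-like cells. The next, *BC100530*, had 6 and 1746, of which 1742 were in that class. Only 1 control and 2 mutant cells had 20 or more UMIs of 6 neutrophil granule genes, and those 2 mutant cells held 2 *Wdfy1* UMIs. Without the macrophage-like class, *Wdfy1* had the highest ratio of 13306 genes, of which 0.173% were at least 2-fold higher.

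**Figure D3:**
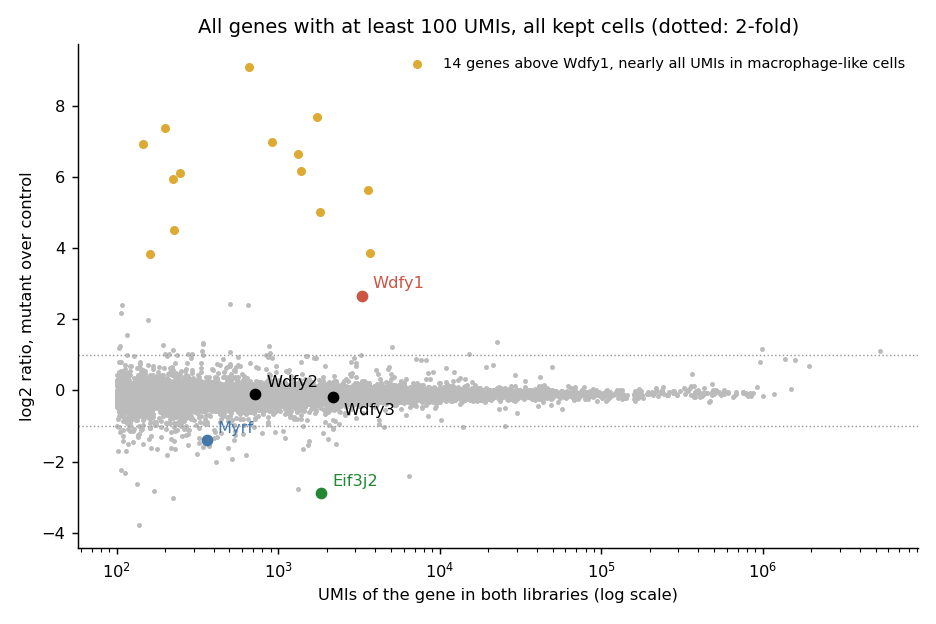
Log2 ratio of mutant over control against the UMIs of the gene in both libraries (log scale), for genes with at least 100 UMIs in all kept cells. Wdfy1 (red) lies at 2.67, below 14 genes whose UMIs were nearly all in macrophage-like cells (yellow) and above the remaining genes, while Wdfy2 and Wdfy3 (black) lie near 0, and Eif3j2 (green) and Myrf (blue) lie below it.

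Within classes, *Wdfy1* was second among genes with at least 20 UMIs in RPE-like cells, after the cell cycle inhibitor *Cdkn1a*. It was second in retinal progenitor-like, neurogenic precursor-like and retinal ganglion cell-like cells too, after *Gm26531*, *Xlr3b* and *Sst* respectively, and it had the highest ratio in amacrine or horizontal-like cells. It stood at place 3 in endothelial-like, 8 in periocular mesenchyme-like, 9 in melanocyte-like, 25 in Schwann or neural crest-like, 32 in macrophage-like and 367 in red blood cell-like cells. The share of genes at least 2-fold higher in the mutant was 1.84% in RPE-like, 0.438% in retinal progenitor-like, 0.576% in periocular mesenchyme-like and 2.17% in macrophage-like cells.

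*Wdfy1* was compared in 8 of the 9 classes with at least 50 cells in each library, and it was at least 2-fold higher in all 8. It was the only gene with that count, or 0.0169% of the 5917 genes that could reach it. *Pop4*, which encodes a protein subunit of RNase P and RNase MRP, followed with 7 classes, and it had 2242 control and 4903 mutant UMIs, which gave a log2 ratio of 0.88 (0.80 to 0.95). In the other direction, *Eif3j2* was at least 2-fold lower in all 9 classes, with 1595 and 254 UMIs, at a log2 ratio of -2.90 (-3.10 to -2.71), and no other gene reached 8 classes. *Eif3j1*, its near copy, which also encodes a subunit of translation initiation factor eIF3, had 3844 and 7069 UMIs, at a log2 ratio of 0.63 (0.57 to 0.68). Reads of these near copies may be split between them, so the pair is uncertain.

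The genes most like *Wdfy1* were sought over those 9 classes. By the root mean square difference of the log2 ratios, the nearest were *Gm4737* at 1.19, *Xlr3b* at 1.39, *A930015D03Rik* at 1.56, *Pop4* at 1.56 and *Cdk5rap1* at 1.77, against a median of 2.66 over all 13560 genes. *Gm4737* had 67 and 439 UMIs, which gave a log2 ratio of 2.44 (2.09 to 2.85). In retinal ganglion cell-like cells its value was -0.28, which is what equal counts in both libraries give there, so no direction is read. *Xlr3b*, an X-linked gene of a family with near-identical copies, had 228 and 646 UMIs, which gave a log2 ratio of 1.25 (1.03 to 1.47). Class ratios entered these distances without a minimum count, among them *Wdfy1* in surface ectoderm-like cells with 2 and 12 UMIs. Counting error is therefore part of each distance, and closeness in size is not judged from it. Over all kept cells the interval of *Gm4737* overlapped that of *Wdfy1* (2.52 to 2.83). In retinal progenitor-like cells *Gm4737* stood at 1.67 and *Wdfy1* at 3.27. By Pearson correlation of log2(CPM + 1) over the 18 points of 9 classes and 2 libraries, the nearest were *Xlr3b* at 0.816, *Pop4* at 0.781, *Eif3j1* at 0.780, *Zfp235* at 0.742 and *Wdr5b* at 0.731. These points share libraries and depths, and the values are a description.

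The genes with the lowest ratios over all kept cells were *Gm14091* (127 control and 10 mutant UMIs), the RPE lactate transporter *Slc16a8* (196 and 28, of which 185 and 21 were in RPE-like cells), *Eif3j2*, the lens crystallin *Cryaa* (147 and 24) and the mast cell protease *Cma1* (1127 and 197, of which 1121 and 194 were in macrophage-like cells).

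The genes around *Wdfy1* on chromosome 1 did not share its difference. Of the 10 annotated protein coding genes on each side, from chr1:78101267 to 82445366, 17 had at least 20 UMIs. None was at least 2-fold higher in the mutant, where 0.697% of all genes at that minimum were, and 1 was at least 2-fold lower, where 1.78% were. With 17 genes, these counts are near the background. Their log2 ratios ranged from -1.08 to 0.51 with a median of -0.16. *Mrpl44*, a mitochondrial ribosomal protein gene whose start overlaps that of *Wdfy1* on the other strand, had 3091 control and 3295 mutant UMIs, which gave a log2 ratio of -0.16 (-0.23 to -0.09). *Ap1s3*, an adaptor complex subunit gene on the 3′ side, had 105 and 92 UMIs, which gave a log2 ratio of -0.44 (-0.86 to -0.02). *Serpine2*, a protease inhibitor gene on the 5′ side, had 3305 and 4074 UMIs, which gave a log2 ratio of 0.05 (-0.02 to 0.12). The gene that passed 2-fold was *Mogat1*, an acyltransferase of fat synthesis, with 31 and 17 UMIs, at a log2 ratio of -1.08 (-2.06 to -0.22), and it was no longer 2-fold apart when ratios were scaled by their median over genes. Of 741 genes on the whole chromosome with at least 100 UMIs, *Wdfy1* alone was at least 2-fold higher, or 0.135%, beside 0.295% of all genes at that minimum. On the same chromosome 10 genes, or 1.35%, were at least 2-fold lower, beside 0.693% of all genes. The nearest of these, named after their values were seen, were the neighbouring basement membrane collagen genes *Col4a4* (265 and 107 UMIs, log2 ratio -1.55, -1.90 to -1.23) and *Col4a3* (92 and 44 UMIs, log2 ratio -1.30, -1.87 to -0.78), which lay beyond the 10 genes on their side. All these ratios are sums over all kept cells, of which RPE-like cells made up 4.65% in the control and 2.40% in the mutant. The part of class makeup in the lower genes was not tested.

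**Figure D4:**
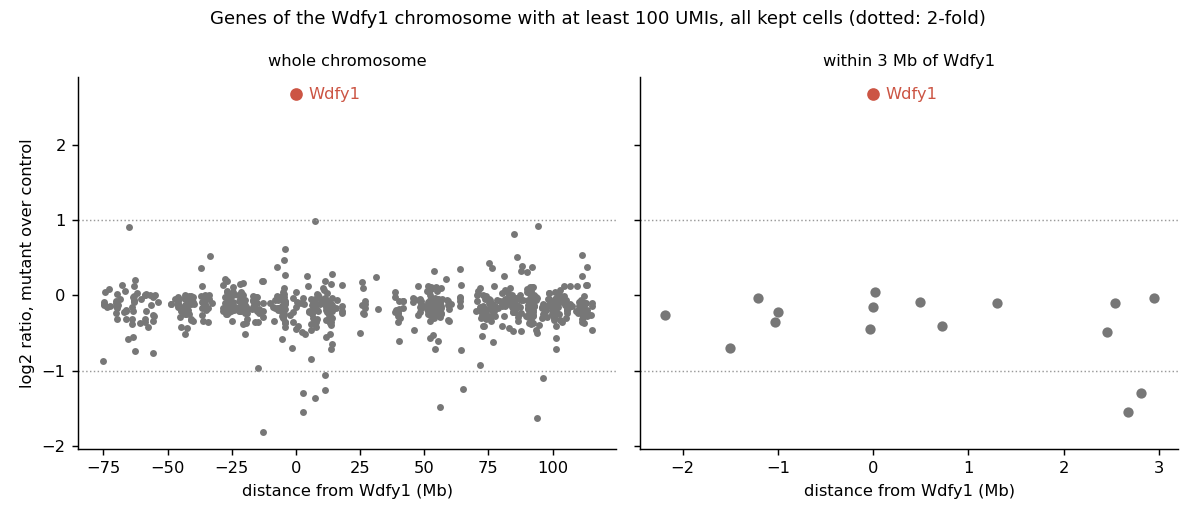
Log2 ratio of mutant over control for genes of chromosome 1 with at least 100 UMIs, against their distance from Wdfy1 in Mb, for the whole chromosome (left) and within 3 Mb (right). Wdfy1 lies at 2.67, and no other gene lies above the upper dotted line of 2-fold, while 10 genes lie below the lower one, among them Col4a4 and Col4a3 in the right panel.

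The other genes of the Wdfy family were measured next, and 0 of 3 were at least 2-fold apart in either direction. Over all genes with at least 20 UMIs, 0.697% were at least 2-fold higher and 1.78% lower, so this count is near the background. *Wdfy2* had 341 control and 381 mutant UMIs, which gave a log2 ratio of -0.09 (-0.31 to 0.12). *Wdfy3*, which encodes an adaptor of selective autophagy, had 1062 and 1113 UMIs, which gave a log2 ratio of -0.18 (-0.31 to -0.06). *Wdfy4*, a gene of immune cells, had 45 and 32 UMIs, which gave a log2 ratio of -0.73 (-1.45 to -0.06), and 30 and 21 of these UMIs were in macrophage-like cells. The median of the family without *Wdfy1* was -0.18, beside -0.13 over all 16080 genes with at least 20 UMIs. These are differences between libraries and not levels per length.

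The pathway in which WDFY1 is known as an adaptor was represented by 18 compared genes of TLR3 and TLR4 signalling, of which 0 were at least 2-fold higher and 1 at least 2-fold lower, with a median log2 ratio of -0.20. This count too is near the 0.697% and 1.78% of all genes. The receptors *Tlr3* and *Tlr4* had 28 and 26 UMIs in the control and 35 and 23 in the mutant, too few to read a direction. *Ticam1*, which encodes TRIF, had 137 and 140 UMIs, which gave a log2 ratio of -0.22 (-0.57 to 0.13). The members with most UMIs were the inhibitor gene *Nfkbia* at -0.11 (-0.18 to -0.04), the transcription factor gene *Irf3* at -0.10 (-0.21 to 0.00) and the NF-kappaB subunit gene *Rela* at -0.23 (-0.35 to -0.10). *Irf7*, an interferon-inducible factor, was the gene that passed 2-fold, with 43 and 18 UMIs, at a log2 ratio of -1.46 (-2.39 to -0.68), and it stands in the interferon list too. *Ifnb1*, which encodes interferon beta, had 1 and 0 UMIs, at or under the floor of 3 counts, so no ratio is given.

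Of 16 compared interferon-stimulated genes, 1 was at least 2-fold higher in the mutant library and 5 at least 2-fold lower, with a median log2 ratio of -0.63, where 0.697% of all genes were higher and 1.78% lower. The members with most UMIs were *Ifitm3* at -0.34 (-0.43 to -0.25), *Bst2* at -0.65 (-0.76 to -0.53) and *Stat2* at -0.40 (-0.65 to -0.14). The 5 lower genes, named after their values were seen, were *Isg15*, *Ifit3*, *Irf7*, *Oas1a* and *Rtp4*, and the higher one was *Rsad2*, with 58 and 141 UMIs. In macrophage-like cells 7 of 12 compared genes were at least 2-fold lower and 0 higher, where 2.29% of all genes were lower, and their median was -1.29. There *Isg15* had 80 and 36 UMIs and *Rtp4* 67 and 13. The makeup of this class differed between the libraries: *Cma1* had 1121 and 194 UMIs in it, and over all kept cells the 6 neutrophil granule genes had 291 control and 10902 mutant UMIs. Without the cells with 20 or more neutrophil granule UMIs, 7 of 12 genes were still at least 2-fold lower, with a median of -1.34, and the part of mast cells was not tested. In RPE-like cells 2 of 6 compared genes were at least 2-fold lower, where 3.18% of all genes were. In retinal progenitor-like cells 1 of 9 was, against 1.02% of all genes, and in periocular mesenchyme-like cells 0 of 8, against 0.887%. *Wdfy1* was higher in the mutant library in each of these 4 classes.

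The last list held 28 genes of early endosomes and PI3P, the lipid that the FYVE finger binds, and 0 were at least 2-fold apart in either direction, near the background of 0.697% higher and 1.78% lower. Their median log2 ratio was -0.16, and the range was -0.61 to 0.10. The members with most UMIs were the sorting nexin gene *Snx3* at -0.14 (-0.17 to -0.11), the small GTPase gene *Rab5c* at 0.01 (-0.06 to 0.07) and the retromer gene *Vps35* at -0.08 (-0.15 to -0.01). *Pik3c3*, the kinase gene that makes PI3P, had 450 and 434 UMIs, which gave a log2 ratio of -0.30 (-0.50 to -0.11), and *Eea1*, a tether of early endosomes with its own FYVE finger, had 1903 and 2046 UMIs, at -0.15 (-0.24 to -0.06). The values of this list lay around the median of all genes.

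**Figure D5:**
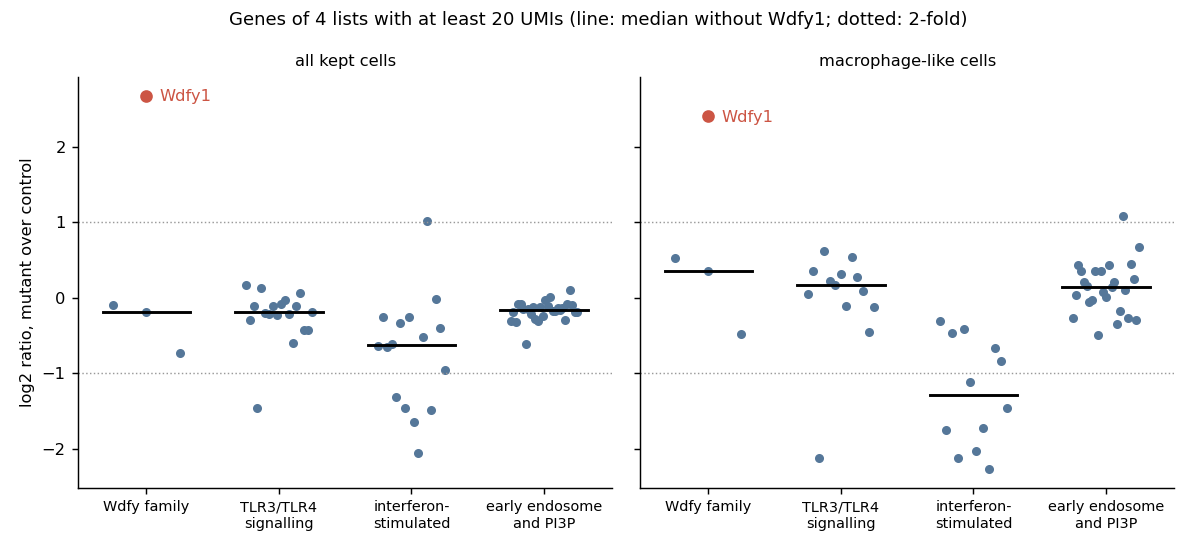
Log2 ratio of mutant over control for the genes of 4 lists with at least 20 UMIs, in all kept cells (left) and macrophage-like cells (right), with a line at each list's median without Wdfy1 and dotted lines at 2-fold. Wdfy1 (red) lies above every gene of the lists in both panels, and the interferon-stimulated genes have the lowest medians, -0.63 and -1.29.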

How the data were processed

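Single cells of e13.5 eye cups were measured in 2 libraries, 1 per genotype, each of 3 pooled samples, with 10X Genomics 3′ chemistry. The deposited values are raw UMI counts, which the authors made with Cell Ranger 7.1.0 on mm10 by the submitters' processing notes, while the matrix headers give a software version of 3.0.0. Whether intronic reads were counted is not given in the sources used here. *Wdfy1*, the classes and the gene lists were chosen with earlier results of these data known.

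Cells needed at least 200 genes and at most 15% mitochondrial UMIs. Scrublet (scanpy 1.11.5, expected doublets 5%) marked 51 control and 74 mutant cells, which were removed. Cells were normalized, integrated and clustered in Seurat 5.3.0 under R 4.3.3 with 30 components at resolution 0.8. Clusters were named X-like from marker lists, by a score of at least 0.5 and 3 detected markers, thresholds set after the clusters were seen. *Wdfy1*, *Myrf* and the genes of the lists were kept out of the 1991 genes used for clustering.

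UMIs were summed per class and library and given as CPM of the class with exact Poisson intervals (scipy 1.17.1). Log2 ratios compare the CPM of the mutant to that of the control after 1 UMI was added per sum, with exact conditional binomial intervals. Differences between log2 ratios have approximate intervals from a normal approximation. Shares have Clopper-Pearson intervals. The floor for a count of 0 was 3 UMIs. PCR duplicates were collapsed by UMI, and intervals cover counting error only. A gene was called apart at 2-fold, with at least 100 UMIs over all kept cells or 20 in a class or list. Ratio intervals were run on simulated Poisson counts, where they held the true value for 94.5% of 200 changed genes and 95.3% of unchanged genes. The intervals assume that same model, without spread between embryos or cells, so this checks the calculation only. The genes named were *Wdfy1*, *Myrf*, the Wdfy family and the 3 members with most UMIs of each list, 10 annotated coding genes on each side of *Wdfy1*, the 5 genes nearest to it by ratio and by level over the classes, and the 5 largest rises and falls. Gene positions and sequences were taken from GENCODE M21, in which 30934 of 31053 features had an entry, with BLAST 2.17.0 for likeness. Alternatives were filters on cells, clustering, scaling, sex and depth.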

Additional observations from a re-analysis of the deposited data

How the results depend on the processing

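With 1 library per genotype, no library was left out and no spread between embryos was measured. No paired analysis was possible because each genotype had 1 library and no test was made. *Wdfy1* was higher in the mutant library in all 56 values recomputed over all kept cells, eye field classes, other classes and RPE-like cells, and in all 161 recomputed for single classes, where an alternative left more than 3 UMIs in a library. Of these 161, 19 moved beyond the interval of the value reported. In cells of at most 2000 UMIs, retinal progenitor-like cells were at 0.08 (-2.39 to 2.94) and retinal ganglion cell-like cells at 0.29 (-1.46 to 2.63). Thinned to 3000 UMIs, melanocyte-like cells were at 0.73, Schwann or neural crest-like cells at 0.85 and endothelial-like cells at 0.93, each with an interval that included 0.

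Of the 56, 47 lay within the interval of the value reported. In cells of at most 2000 UMIs, the shallowest, the log2 ratio was 1.31 over all kept cells, 0.99 in eye field classes, 1.56 in other classes and 2.23 in RPE-like cells, and the last 3 of these intervals included 0. The order of eye field and other classes was reversed there. As a difference of means of log-normalized values per cell, another scale, it was 0.28, 0.38, 0.24 and 0.39. Thinned to 3000 UMIs, it was 1.98 in other classes. The share of cells with a *Wdfy1* UMI was 25.3 percentage points higher in the mutant. In cells of at most 2000 UMIs the gap was 2.81 points, in female cells 33.6 and in male cells 31.9, and thinned to 1000, 3000 and 5000 UMIs it was 3.71, 9.82 and 15.3. Cells with a sex call were deeper, at median depths of 14070 and 13860 UMIs (female, control and mutant) and 14714 and 13584.5 (male). Cells of neither call had 3798 and 4809. The part of depth in the share gaps by sex was not tested. Of the neighbours on the chromosome, 1 was at least 2-fold apart, and 0 were when scaled by the median ratio of genes or at a minimum of 100 UMIs. Of the TLR list, 1 was, and 0 at a minimum of 100 UMIs. Alternatives chosen after seeing the data left out the shared barcodes, the neutrophil-type cells or red blood cell-like cells, with ratios over all kept cells from 2.67 to 2.79.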
